A study of Homo sapiens with 9 samples.

Results

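The genes described here are those of 6 IGF-binding proteins (IGFBP2 to IGFBP7), the IGF receptors IGF1R and IGF2R, the insulin receptor INSR and the receptor adaptor IRS2, 10 genes in all, followed over all 9 arrays of the series. They were chosen by the values of the hemin arrays, in which IGFBP4 was among the genes farthest below untreated cells, so values with hemin are given as a description, without a test. Of the 10 genes, 8 had 22 probe sets among the 27306 of the table. No probe set used here is annotated to IGFBP3 or IGFBP6, so neither gene was analysed here. The line K562 is a human myeloid leukemia cell line that can be driven towards erythroid or megakaryocytic features, and HEL is another human leukemia line with erythroid and megakaryocytic features. Of the 6 K562 arrays, 2 were of untreated cells, 1 each of cells with 25 µM and 50 µM hemin, an inducer of erythroid features, 1 of cells with 100 nM decitabine (DAC), an inhibitor of DNA methyltransferases, and 1 of cells with 5 nM PMA, a phorbol ester that switches on protein kinase C. The 3 HEL arrays were of untreated cells, of cells with 20 nM DAC and of cells with 5 nM PMA. By the protocol, DAC was added in 3 pulses of 24 h and the cells were taken at 144 h, and PMA was kept on for 48 h. No time is given for hemin. It names other doses than some titles do, and the doses of the titles are used here. Nothing says whether the 2 untreated K562 arrays came from separate cultures, so the gap between them may be technical. The spread behind the p-values within K562 also holds the gap between the hemin doses, taken as 1 group, and in the fits of both lines it holds differences in response between the lines.

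Insulin-like growth factors bind IGF1R, a receptor tyrosine kinase closely related to the insulin receptor, and both receptors pass the signal through IRS adaptors to the PI3K and AKT kinases. IGF-binding proteins are secreted, hold the ligands outside the cell and thereby limit or prolong receptor activation. IGF2R, also known as the cation-independent mannose 6-phosphate receptor, takes up IGF2 for degradation in lysosomes and carries lysosomal enzymes. IGFBP7 binds insulin-like growth factors more weakly than the others do.

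Expression is given as log2 values of GCRMA, a method that removes background with the help of the probes' base content and equalises the arrays. The median over all probe sets was between 6.67 and 6.78 on each array, the lowest value was 2.25, and values under 5 are treated as too dim to order. Correlations over all probe sets were 0.982 between the untreated K562 arrays and at most 0.870 between an array of K562 and one of HEL. Of 8 erythroid marker genes 7 had a probe set and all 7 reached 5, and GATA1, the erythroid and megakaryocytic transcription factor, was between 9.19 and 11.52 on every array. The summed level of the 6 megakaryocytic markers was 5.54 to 13.70 (log2) in K562, highest with PMA, and 13.03 to 14.57 in HEL. Of 6 stromal markers 2 had a probe set, and DCN was at 2.25 to 2.26 on every array. The summed level was 6.45 to 7.83 in K562 and 6.22 to 7.38 in HEL. The T cell gene CD3D and the epithelial gene EPCAM reached 12.51 and 12.35 in K562, where the summed levels of the T cell and epithelial lists were 8.55 to 12.52 and 9.20 to 12.35. In HEL they were 4.54 to 7.11 and 2.78 to 3.69. The B cell list lay at 4.43 to 5.11 in K562 and 5.85 to 6.31 in HEL. The part of these marker differences in the results below was not tested. In such bulk samples, fewer cells of a type and less RNA per cell cannot be told apart.

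The first question was whether both leukemia lines express the same binding proteins and receptors, and they did not. K562 cells expressed more IGFBP4, IGF2R and INSR than HEL cells, whereas HEL cells expressed more IGFBP2, IGFBP7 and IGF1R. In a limma fit of the 7 arrays that are untreated or treated with DAC or PMA, with cell line and treatment as terms, 6 of the 8 genes passed an adjusted p of 0.05, 3 higher and 3 lower in K562. Among all 10505 genes tested, 19.6% were higher and 16.5% lower, 36.1% in all, and 3794 genes passed in all (1927 without the untreated HEL array, 2364 without the first untreated K562 array, 2502 without HEL with DAC and 2513 without K562 with DAC, and 6 of the 8 genes passed each time). IGFBP7 entered this fit only through its HEL values and INSR only through its K562 values. Of the 6 genes that reached 5 in both lines, 4 passed (IGFBP2, IGFBP4, IGF1R and IGF2R), against 30.3% of the 8941 such genes. IGFBP5 and IRS2 did not pass, and 7 of the 8 genes had an unadjusted p under 0.05, against 47.1%. With hemin included, all 6 K562 arrays lay above all 3 HEL arrays for 2 of the 8 genes and below them for 4, where 20.9% and 16.9% of all genes did. For IGFBP7, 1 of the 4, the HEL array with DAC was itself under 5. IGFBP4 was picked by a hemin contrast that used both untreated K562 arrays. These arrays are also in the fit of 7 arrays, so the call of IGFBP4 is not independent of that choice. The call of IGFBP4 was lost when only the untreated arrays were set against each other (log2 difference 4.69, adjusted p = 0.130 from limma).

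**Figure D1:**
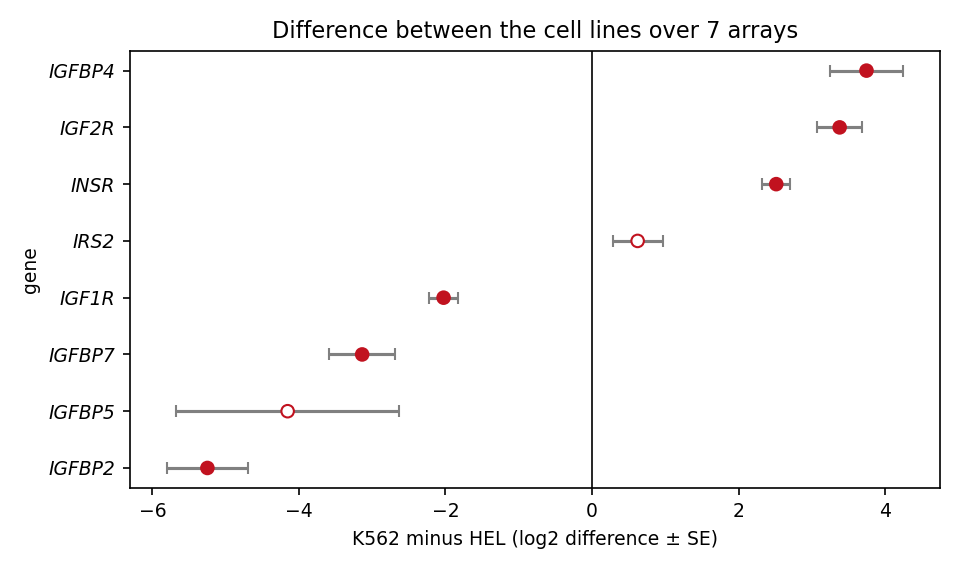
Log2 difference between K562 and HEL cells (horizontal axis, K562 minus HEL, with standard errors from limma) for the 8 measured genes (vertical axis) over the 7 untreated, DAC and PMA arrays. Filled points passed an adjusted p of 0.05. Values under 5 enter as measured, as with IGFBP7 in K562 and INSR in HEL. IGFBP4, IGF2R and INSR lie to the right of 0, and IGFBP2, IGFBP7 and IGF1R to the left.

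IGFBP2 and IGFBP5, 2 of the secreted binding proteins, are neighbours on chromosome 2, with IGFBP2 at chr2:216632828-216664436 and IGFBP5 at chr2:216672105-216695549 (GRCh38.p14) and 7668 bases between them. IGFBP2 was at 9.63 in untreated HEL cells, 9.60 with DAC and 11.32 with PMA. In K562 it was at 4.13 and 5.56 without treatment, 2.31 and 2.25 with 25 and 50 µM hemin, 2.89 with DAC and 6.91 with PMA. Every HEL array was above every K562 array, and only 1 untreated K562 array and the PMA array exceeded 5. The log2 difference of K562 from HEL was -5.25 (standard error 0.56, adjusted p = 0.00161 from limma). With values under 5 set to 5, untreated HEL cells had at least 20.4-fold more.

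IGFBP5 was at 11.08 in untreated HEL cells, 10.96 with DAC and 9.67 with PMA on its brightest probe set. In K562 it was at 3.50 in one untreated array and 8.42 in the other, 3.12 and 2.25 with 25 and 50 µM hemin, 4.62 with DAC and 8.99 with PMA. The untreated K562 arrays thus differed by a log2 value of 4.92. That gap was larger than in 99.98% of the 9890 genes measured in K562, where the median gap was 0.31. The lower value, 3.50, is under 5, so the size of this gap is not measured. Against this spread the log2 difference of K562 from HEL of -4.15 did not pass the test (standard error 1.52, adjusted p = 0.0843 from limma). The lines nevertheless did not overlap on this probe set. Of the 6 probe sets of IGFBP5, 4 reached 5 on some array, and 2 of these 4 were higher in every HEL array than in every K562 array. With PMA, 3 were at 5 or more and above both untreated arrays in K562, and 4 lay below an untreated value of 5 or more in HEL. The difference between the PMA responses of the lines was 4.44 on the brightest probe set (standard error 3.84, adjusted p = 0.597 from limma) and did not pass the test.

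IGFBP4, on chromosome 17 (chr17:40443450-40457725), is a binding protein known mainly as an inhibitor of IGF action. It was at 11.08 and 9.68 in untreated K562 cells, 7.86 and 5.30 with 25 and 50 µM hemin, 8.17 with DAC and 12.37 with PMA. In HEL it was at 5.69 without treatment, 4.96 with DAC and 9.36 with PMA. The PMA array was the highest within each line. In decreasing order the arrays were K562 with PMA, the untreated K562 arrays, HEL with PMA, K562 with DAC, K562 with 25 µM hemin, untreated HEL, K562 with 50 µM hemin and HEL with DAC. The untreated K562 arrays differed from each other by 1.41, and neighbours in this order that lie closer than that do not differ beyond this spread. The log2 difference of K562 from HEL was 3.75 (standard error 0.50, adjusted p = 0.00365 from limma). This test uses the untreated K562 arrays that the choice by hemin also used, so it is not independent of that choice.

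**Figure D2:**
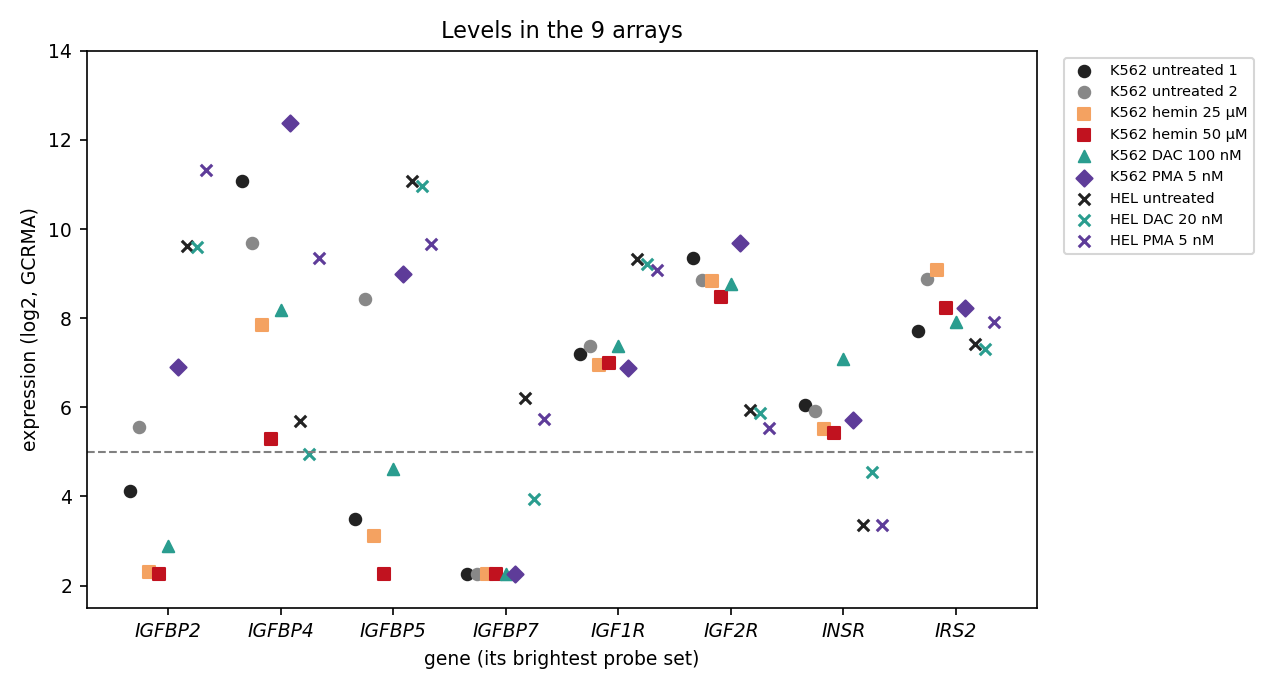
GCRMA log2 values on the vertical axis for the 8 measured genes, each on its brightest probe set (horizontal axis), with 1 point per array. Circles, squares, triangles and diamonds are K562 arrays, crosses are HEL arrays, and the dashed line marks the minimum of 5. IGFBP4 spans 4.96 to 12.37 with PMA highest in each line, IGFBP7 is at the lowest value in K562, and IRS2 overlaps between the lines.

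IGFBP2, IGFBP4 and IGFBP5 had the widest ranges among the 8 measured binding proteins, receptors and IRS2, 9.07, 7.41 and 8.83 on the log2 scale over the 9 arrays, and their promoters are shown for that reason, as RefSeq windows of 300 bases on GRCh38.p14 that run from 250 bases before to 50 after a gene start. Capitals mark CpG, the dinucleotide that DNA methyltransferases modify and whose methylation DAC reduces. Methylation was not measured in these samples.
IGFBP4 (chr17:40443200-40443499, + strand): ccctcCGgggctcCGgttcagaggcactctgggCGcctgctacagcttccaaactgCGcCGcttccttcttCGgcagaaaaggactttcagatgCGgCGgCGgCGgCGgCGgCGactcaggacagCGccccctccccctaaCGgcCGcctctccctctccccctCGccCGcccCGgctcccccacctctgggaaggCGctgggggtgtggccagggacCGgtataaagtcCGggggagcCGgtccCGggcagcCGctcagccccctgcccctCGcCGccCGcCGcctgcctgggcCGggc
IGFBP2 (chr2:216633170-216633469, + strand): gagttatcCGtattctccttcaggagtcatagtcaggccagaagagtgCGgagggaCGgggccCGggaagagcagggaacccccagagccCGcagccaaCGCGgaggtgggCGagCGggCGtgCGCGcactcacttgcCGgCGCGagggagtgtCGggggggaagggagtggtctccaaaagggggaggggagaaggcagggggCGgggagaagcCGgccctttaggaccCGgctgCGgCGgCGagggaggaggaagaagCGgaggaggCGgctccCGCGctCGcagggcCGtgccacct
IGFBP5 (chr2:216695500-216695799, - strand): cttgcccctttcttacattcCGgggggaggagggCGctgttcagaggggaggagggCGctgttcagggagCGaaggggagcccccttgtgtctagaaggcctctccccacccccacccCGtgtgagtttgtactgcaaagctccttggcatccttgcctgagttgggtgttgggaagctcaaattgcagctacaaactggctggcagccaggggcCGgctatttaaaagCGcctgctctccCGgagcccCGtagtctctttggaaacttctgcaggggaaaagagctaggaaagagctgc
The IGFBP4 window holds 30 CpG and the IGFBP5 window 9, against a median of 14 over 35116 windows. IGFBP2 has 3 annotated starts, with 8, 28 and 6 CpG, and the one with 28 is shown. The windows of IGF1R, IRS2, IGF2R and INSR hold 55, 50, 41 and 36 CpG, and IGFBP7 has no window in the table used. The letters TGANTCA, with any base at N, cover the core bound by AP-1 transcription factors, which phorbol esters are known to activate. Not every sequence they cover is such a core. They read the same on both strands and occur in 0 of the 11 windows of 9 of the 10 genes and in 7.71% of all windows. This says only that these letters are not in these windows.

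IGFBP7 was at 6.21 in untreated HEL cells, 3.94 with DAC and 5.73 with PMA. It was at the lowest value, 2.25, on all 6 K562 arrays, so it entered no fit of K562 alone. The log2 difference of K562 from HEL was -3.14 (standard error 0.45, adjusted p = 0.00468 from limma). All K562 values are under 5, so this size is not measured. With values under 5 set to 5, HEL cells had at least 2.32-fold more without treatment and at least 1.66-fold more with PMA, and with DAC neither line reached 5. In HEL the DAC array was below 5, so that with values under 5 set to 5 its log2 difference from untreated was -1.21, with 1 array each and no test.

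Among the receptors, IGF1R was the one with the higher level in HEL. On its brightest probe set it was at 9.33, 9.21 and 9.07 in untreated, DAC-treated and PMA-treated HEL cells. In K562 it was at 7.20 and 7.37 without treatment, 6.94 and 7.0 with hemin, 7.37 with DAC and 6.88 with PMA. The lines did not overlap on the 3 of its 4 probe sets that were at 5 or more on every array, and the spread within a line was small beside the difference of -2.03 (standard error 0.19, adjusted p = 0.00108 from limma), or 4.07-fold.

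IGF2R went the other way. It was at 9.34 and 8.86 in untreated K562 cells, 8.83 and 8.48 with 25 and 50 µM hemin, 8.76 with DAC and 9.70 with PMA. In HEL it was at 5.93 without treatment, 5.88 with DAC and 5.54 with PMA. Levels in K562 were 10.4-fold higher (log2 difference 3.38, standard error 0.31, adjusted p = 0.000899 from limma), and a further probe set had a log2 difference of 3.36. The remaining probe set was below 5 on all arrays.

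INSR was at 6.05 and 5.91 in untreated K562 cells, 5.50 and 5.42 with 25 and 50 µM hemin, 7.09 with DAC and 5.72 with PMA. In HEL it was at 3.37 without treatment, 4.55 with DAC and 3.37 with PMA, all under 5. The DAC array was the highest in K562. The log2 difference of K562 from HEL was 2.51 (standard error 0.19, adjusted p = 0.000441 from limma), a size that rests on HEL values under 5. With values under 5 set to 5, K562 cells had at least 1.97-fold more without treatment, 4.26-fold with DAC and 1.65-fold with PMA. These bounds are from the brightest of its 4 probe sets. Over the 7 arrays the bound was 2.36-fold there and 1.25-, 1.14- and 1-fold on the others. Of the 4 probe sets, 2 overlapped between the lines.

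The adaptor IRS2, which links both receptors to PI3K, did not separate the lines. It was at 7.70 and 8.89 in untreated K562 cells, 9.08 and 8.22 with 25 and 50 µM hemin, 7.92 with DAC and 8.23 with PMA. In HEL it was at 7.42 without treatment, 7.31 with DAC and 7.92 with PMA. The difference of 0.62 (standard error 0.34, adjusted p = 0.207 from limma) was smaller than the 1.18 between the untreated K562 arrays.

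The next question was how PMA changed these genes. In K562 cells IGFBP2, IGFBP4 and IGFBP5 were above both untreated arrays with PMA, and in HEL cells IGFBP2 and IGFBP4 were above the untreated array as well. In the fit of the 6 K562 arrays, 0 of the 7 measured genes passed the test, against 16.8% of the 9890 genes tested, and 1 of 7 had an unadjusted p under 0.05, against 36.4%. By size alone, 4 were over 1.5-fold higher and 0 over 1.5-fold lower, where 25.8% and 30.1% of all genes were. That background of 1664 genes became 0 when either untreated or either hemin array was left out, when both hemin arrays were, or when each hemin dose was its own group, settings that each leave 1 residual degree of freedom. IGFBP2 had the smallest p of the 7, at a log2 change of 2.07 with a standard error of 0.66 (limma adjusted p = 0.112). The changes were 1.99 for IGFBP4 (standard error 1.29) and 3.03 for IGFBP5 (standard error 2.19), with standard errors that carry the gaps between the untreated arrays and between the hemin doses (1.41 and 2.56 for IGFBP4). The spread thus draws on the hemin values that the choice of genes used, and with each dose as its own group the limma adjusted p was 0.256 for IGFBP4 and 0.250 for IGFBP2. With both lines in 1 fit, IGFBP4 was higher by 2.67 (standard error 0.59, unadjusted p = 0.00487, adjusted p = 0.127 from limma) and IGFBP2 by 1.80 (standard error 0.66, adjusted p = 0.201). Here 0 of 8 genes passed, against 0.314% of all genes (33, with 0 when any untreated array or either DAC array was left out, 42 without K562 with PMA and 2209 without HEL with PMA), and 2 of 8 had an unadjusted p under 0.05, against 22.8%. In HEL alone, with 1 array per condition and no test, PMA minus untreated was 3.67 for IGFBP4, 1.69 for IGFBP2 and -1.41 for IGFBP5. Of the 7 genes measured in HEL, 2 were over 1.5-fold higher and 1 over 1.5-fold lower, where 14.9% and 16.8% of the 9641 genes were. The receptors moved less, with K562 changes of -0.40 for IGF1R, 0.60 for IGF2R and -0.26 for INSR, none past the test. The difference between the PMA responses of the lines passed for 0 of 8 genes (0 with an unadjusted p under 0.05, against 21.1%), against 2.66% of all genes (281, with 0 without either untreated K562 array or either hemin array).

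With DAC, IGFBP4 was below both untreated K562 arrays, and INSR was at 5 or more and above them on 3 of its 4 probe sets. None of the 7 genes passed the test in K562, where 0.0607% of the genes tested did, and 1 was over 1.5-fold higher and 3 over 1.5-fold lower, where 14.8% and 17.7% of all genes were. With values under 5 set to 5, a setting chosen after seeing the data, 1 was higher and 2 lower, since IGFBP2 then differs by less, and 13.7% and 15.8% of all genes were. An unadjusted p under 0.05 was found for 2, against 10.8% of all genes. They were INSR, at 1.11 above the untreated mean (standard error 0.22, unadjusted p = 0.00755, adjusted p = 0.347 from limma), and IGFBP2, with -1.95 (standard error 0.66, unadjusted p = 0.0423, adjusted p = 0.448). IGFBP2 was under 5 with DAC, and so was 1 untreated array. The change of IGFBP4 was -2.21 (standard error 1.29, adjusted p = 0.534). With both lines in 1 fit INSR was higher by 1.13 (standard error 0.22, unadjusted p = 0.00293, adjusted p = 0.923 from limma) and IGFBP4 lower, at -1.63 (unadjusted p = 0.0360). No gene of the 10505 passed in that comparison, and 2 of the 8 genes against 4.13% of all genes had an unadjusted p under 0.05. All HEL values of INSR lie under 5, so its part in this comparison rests on dim signals, and the DAC doses differ between the lines. In HEL, 0 of 7 measured genes were over 1.5-fold higher, where 4.23% of genes were, and 2 were over 1.5-fold lower, IGFBP4 and IGFBP7, where 6.05% were. The difference between the DAC responses passed for 0 of 8 genes and for 0 of the 10560 genes tested. IGFBP7 alone had an unadjusted p under 0.05 there (1 of 8, against 6.99% of all genes), with K562 at the lowest value throughout.

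**Figure D3:**
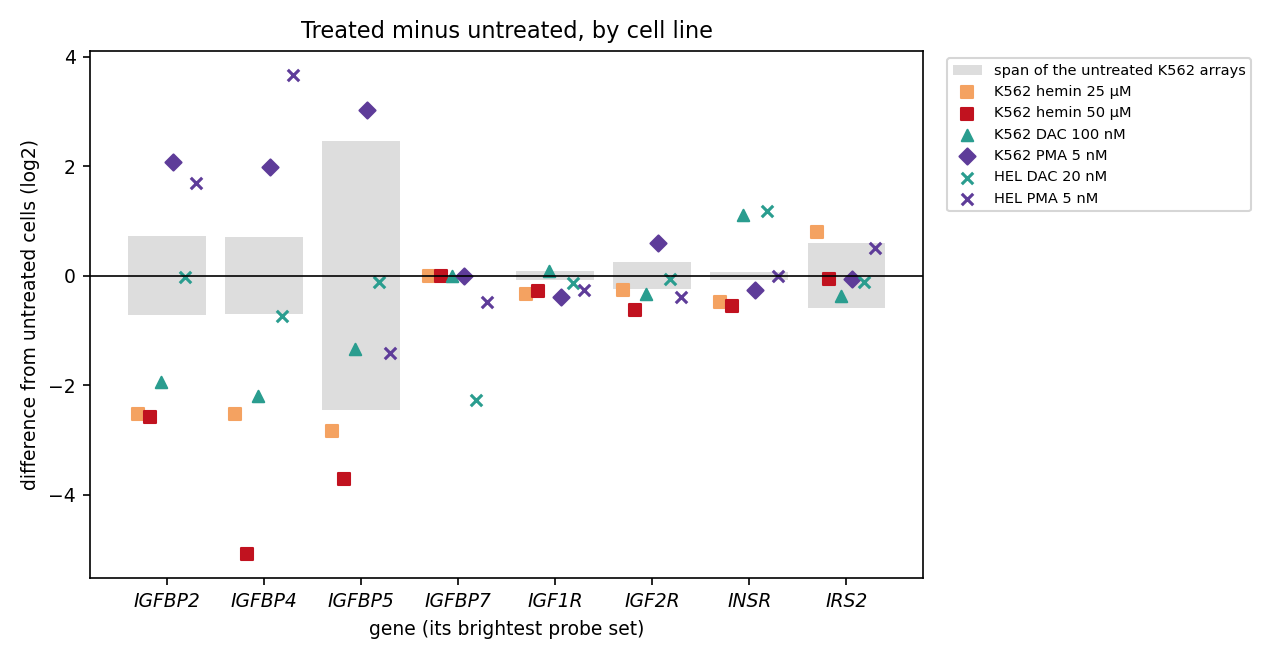
Log2 difference of each treated array from untreated cells of its line (vertical axis) for the 8 measured genes (horizontal axis), with the mean of 2 untreated arrays as the base in K562 and 1 untreated array in HEL. Grey bands span the untreated K562 arrays around their mean, 4.92 wide for IGFBP5 and 1.41 for IGFBP4. The width for IGFBP5 rests on a value under 5. IGFBP4 lies at -5.08 with 50 µM hemin, 1.99 with PMA in K562 and 3.67 with PMA in HEL.

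With hemin, the contrast that brought these genes together, IGFBP4 ranked second by size of difference among 1829 genes with a mean of at least 6 that were lower in both hemin arrays than in both untreated arrays, -3.81 in the mean of both doses, between ATP2A3 at -4.18 and RAB27B at -3.40. Its log2 differences from the untreated mean were -2.53 at 25 µM and -5.08 at 50 µM. IGFBP2 and IGFBP5 also lay low, at values under 5 with both doses, and IGFBP5 was already at 3.50 in 1 untreated array. In the mean of both doses 3 of the 7 measured genes were over 1.5-fold lower and 0 over 1.5-fold higher, and 14.2% and 9.41% of all genes were. At 25 µM the counts were 3 lower and 1 higher, where 9.68% and 7.91% of all genes were, and at 50 µM 4 lower and 0 higher, where 20.8% and 15.4% were. With values under 5 set to 5, 1 gene fewer was lower in each, 2, 2 and 3, where 12.1%, 8.16% and 18.4% of all genes were. The receptors differed less from the untreated mean, by -0.44 for IGF2R, -0.52 for INSR and -0.31 for IGF1R over both doses, and IRS2 by 0.36. Hemin, DAC and PMA were all set against the same untreated K562 arrays, so that the common direction of hemin and DAC on IGFBP4 is no separate observation.

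The remaining genes of insulin and IGF signalling were taken from 5 lists. Of 9 genes of ligands and other binding proteins, IGF1 and CCN1 were measured above 5. IGF1, the main ligand of IGF1R, was at 8.38 and 9.92 in untreated K562 cells, 9.49 and 7.73 with 25 and 50 µM hemin, 5.37 with DAC and 6.58 with PMA. It was at 2.42, 2.74 and 2.42 in HEL, under 5 throughout, and untreated K562 cells therefore had at least 17.8-fold more, with at least 1.29-fold with DAC and 2.99-fold with PMA. IGF1 entered the fit of both lines only through its K562 values. Its adjusted p between the lines (0.00952 from limma) thus rests on HEL values under 5. These bounds are from its brightest probe set. Over the 7 arrays the bound was 4.75-fold there and 2.08-, 1.23- and 1.12-fold on the others. CCN1, a matrix protein of a related family, was between 4.64 and 5.63 in all arrays and 0 tests passed.

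IRS1, the other main adaptor, was at 7.69 and 8.08 in untreated K562 cells, 6.73 and 7.30 with 25 and 50 µM hemin, 6.12 with DAC and 10.46 with PMA, and at 2.32 to 2.41 in HEL. It rose with PMA in K562 by 2.58 (standard error 0.37, adjusted p = 0.0250 from limma) and between the lines (adjusted p = 0.00324) K562 cells had at least 7.39-fold more without treatment, 2.18-fold with DAC and 44.1-fold with PMA. Like IGF1, IRS1 entered the fit of both lines only through its K562 values, so its p between the lines rests on HEL values under 5. Over the 7 arrays its bound was 8.75-fold on the brightest probe set and 1.86- and 1.30-fold on the others. On these others, untreated K562 cells were under 5 as well. Of the 16 other receptors, adaptors and phosphatases 13 were tested. With PMA in K562, 4 rose and 0 fell, with a median change of 0.28 against -0.10 over all genes, where 16.8% passed in either direction. No gene of the lists was called with PMA in the settings named above that leave 0 genes called. The others that rose were M6PR, the smaller mannose 6-phosphate receptor (1.24), the adaptor SHC1 (1.05) and PTPN1, a phosphatase that switches off the insulin receptor (1.49). Between the lines 3 of the 13 were higher in K562 (IRS1, PTPN1 and IDE, an insulin-degrading protease) and 1 was lower (SHC1). Of all genes, 19.6% were higher and 16.5% lower, 36.1% in all. The brightest, PTPN11, SHC1 and GRB2, had K562 differences from HEL of -0.27, -1.34 and 0.07, and SHC1 alone of them passed.

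**Figure D4:**
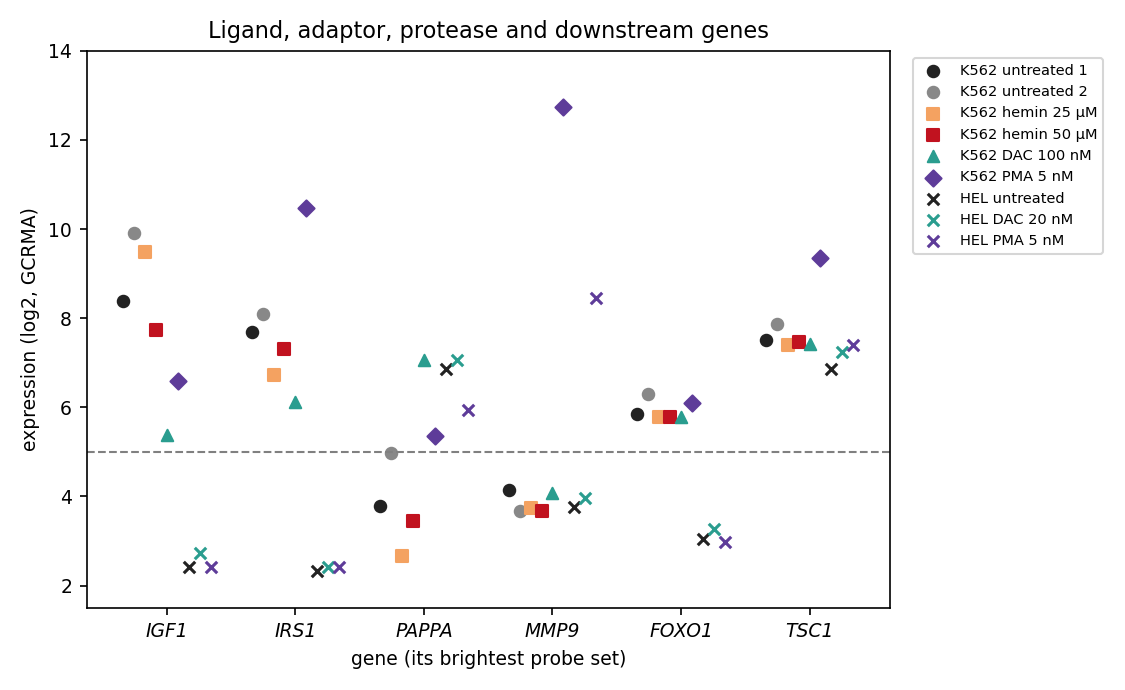
GCRMA log2 values on the vertical axis for 6 other genes of the pathway on their brightest probe sets (horizontal axis), 1 point per array, with symbols as in the plot of the binding proteins and receptors and a dashed line at 5. IGF1 and IRS1 lie above 5 in every K562 array and below 3 in HEL, and MMP9 and TSC1 are highest with PMA in K562.

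Of 11 genes of proteases that cut binding proteins and of inhibitors of these proteases, 5 were tested in K562. MMP9, a gelatinase known to cleave several of them, was at 4.15 and 3.68 in untreated K562 cells and 12.73 with PMA, a rise of at least 7.73 (adjusted p = 0.00462 from limma), and in HEL at 3.77 without treatment and 8.45 with PMA. It was the 1 gene of the list that passed with PMA in K562, where 16.8% of all genes did. MMP9 reached 5 in K562 only with PMA, so it entered this fit only through the array under test. Its p in K562 rests on other values under 5. ADAM9 was higher in K562 by 1.58 (adjusted p = 0.0156 from limma), the only one of 6 tested between the lines that passed, where 36.1% of all genes did. CTSD, a lysosomal protease, passed no test. PAPPA, the protease best known for cutting IGFBP4, was named after its values were seen. It was at 3.79 and 4.98 in untreated K562 cells, 2.66 and 3.46 with 25 and 50 µM hemin, 5.35 with PMA and 7.07 with DAC, higher with DAC by at least 2.07 without passing the test (adjusted p = 0.390 from limma). In HEL it was at 6.86, 7.06 with DAC and 5.95 with PMA.

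The 3 IGF2 mRNA-binding proteins, which stabilise target transcripts, all differed between the lines on their brightest probe sets, where 36.1% of all genes did. IGF2BP3 and IGF2BP1 were higher in K562 by 1.58 and 0.95, and IGF2BP2 was lower at -0.89 (adjusted p = 0.00285, 0.0254 and 0.0427 from limma). A further IGF2BP1 probe set at 5 or more on every array overlapped between the lines. It spanned 6.27 to 8.82 in K562 and 7.72 to 8.56 in HEL, so the call of IGF2BP1 rests on 1 probe set. None passed with PMA or DAC in K562. Of the 20 genes from PI3K to FOXO and mTOR, 16 were tested, and 5 were higher and 0 lower in K562, with a median of 0.54 against 0.08 over all genes, of which 19.6% were higher and 16.5% lower. They were the transcription factor FOXO1 (2.91, with HEL under 5), the PI3K subunit PIK3CD (2.46), the kinases PDPK1 (1.76) and AKT2 (1.34), and RHEB (1.01), an activator of mTOR. FOXO1 entered this fit only through its K562 values. For AKT2, a further probe set at 5 or more on every array overlapped between the lines (6.83 to 7.89 in K562, 7.08 to 7.69 in HEL). With PMA in K562, TSC1, a brake on mTOR, rose by 1.67 (adjusted p = 0.0285 from limma). No other gene of the list passed, where 16.8% of all genes did. PIK3CB and FOXO3, among its brightest genes, passed in neither comparison. With DAC in K562 no gene of the 5 lists passed in limma, and the counts at an unadjusted p under 0.05 were 1, 0, 1, 2 and 1 of the 2, 3, 5, 13 and 16 genes tested for ligands, mRNA-binding proteins, proteases, receptors and the PI3K list. Over all genes tested, 10.8% had an unadjusted p under 0.05 in this comparison.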

How the data were processed

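RNA of 9 samples (6 of K562, 3 of HEL) was hybridised to Affymetrix arrays. The deposited values are log2 expression per probe set, made with GCRMA per the submitters' processing notes. Its version, and how the 27306 probe sets were chosen, are not stated in these sources. A change common to most genes would be lost in that step.

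The platform annotation, with symbols brought up to date through RefSeq, assigned 22858 probe sets to 1 gene and 1164 to several, which were not named, and did not list 3284. A probe set needed a log2 value of 5 or more in 1 array of a fit, and the brightest one stood for its gene (9890 genes in K562, 9641 in HEL, 10505 over 7 arrays, 10560 over 9). Models were fitted with limma 3.58.1 (lmFit, eBayes) in R 4.3.3 with Benjamini-Hochberg adjustment over all genes, and calls were made at 0.05. For PMA and DAC in K562 the 6 arrays formed 4 groups, with both hemin doses in 1, and left 2 residual degrees of freedom, so a treatment with 1 array was assumed to vary like the others. The lines were compared over 7 arrays with treatment as a term, and responses between lines over 9 arrays. The code was tested on simulated data. No test for these arrays is named in the methods.

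The members and lists were chosen with earlier results of these data known. Named genes were all members, all measured ligands, the 3 brightest and all called genes of each other list, and the 5 genes most like IGFBP4 and like each member with a range over 3. The other settings tried were centring on the median, quantile normalization, a minimum of 6 or none, the mean of kept probe sets, an intensity trend, other uses of the hemin arrays, the untreated arrays alone, leaving out each array and, added after seeing the data, setting values under 5 to 5 for the counts by size. Precision is limited by how few arrays there are.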

Additional observations from a re-analysis of the deposited data

How the results depend on the processing

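The 6 calls between K562 and HEL were made under every alternative except the untreated arrays alone, where 5 were made and IGFBP4 was lost (4.69, adjusted p = 0.130 from limma). For PMA and for DAC, in K562 and over both lines, 0 genes were called in all alternatives. With an intensity trend, the PMA and DAC responses of the lines each called 1 gene, IGFBP7 (0.48, adjusted p = 0.00917, and 2.28, adjusted p = 0.00116), whose K562 values are all at the lowest level. Without the second untreated array, 1 gene was beyond 1.5-fold higher and 5 lower with hemin, against 0 and 3, and leaving out each array in turn gave 0 to 1 and 3 to 5.

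Of 830 values of single genes under the alternatives, 783 counted as unchanged. Values without a test did so when they moved by less than the gene's standard deviation in untreated K562 cells, whatever their sign. Among these, IRS2 with hemin ran from -0.23 to 0.95 and IGF2R with DAC in HEL from -0.058 to 0.22. Values from a test counted as unchanged when they kept direction and call. Of the values from a test, 31 changed sign, none of them called, and the cause was not tested. With the mean of the kept probe sets these were IRS2 with PMA in K562 (0.22), IGF1R and IGF2R with DAC over both lines (0.35 and 0.0068), and the differences of response of IGF1R to PMA (0.30) and of INSR and IRS2 to DAC (0.54 and 0.091). With centring, IGF1R with DAC over both lines was at 0.0062. Leaving out 1 array in turn, K562 values ran from -0.66 to 0.53 for IRS2 with PMA, from -3.80 to 1.12 for IGFBP5 with DAC and from -0.96 to 0.22 for IRS2 with DAC. Over both lines with PMA they ran from -1.76 to 3.21 for IGFBP5, -0.33 to 0.45 for IGFBP7, -0.48 to 0.64 for IGF2R and -0.078 to 0.51 for IRS2. With DAC they ran from -2.00 to 0.078 for IGFBP2, -1.97 to 1.14 for IGFBP5, -0.17 to 0.11 for IGF1R, -0.48 to 0.23 for IGF2R and -0.54 to 0.056 for IRS2. The differences of PMA response ran from -0.34 to 1.09 for IGFBP2 and -1.16 to 0.025 for IRS2, and those of DAC response from -3.67 to 1.25 for IGFBP5, -0.14 to 0.0013 for INSR and -0.85 to 0.33 for IRS2.

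Over all genes, calls ranged from 0 to 2061 for PMA in K562, 0 to 38 for DAC in K562, 1927 to 4255 between the lines, 0 to 2209 for PMA over both lines, 0 to 696 for the PMA responses and 0 to 201 for the DAC responses (main counts 1664, 6, 3794, 33, 281 and 0). In 8 cases leaving out the only array of an arm could not be fitted. No paired analysis was possible because the groups share fewer than 2 replicate numbers. Levels under 5 set bounds only.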

Other observations

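Some genes followed the members closely over the 9 arrays among 8304 genes with a mean of at least 6. These correlations are descriptions, since the points share 2 cell lines that differ in many genes and the same untreated cells. They also include values under 5, too dim to order. Those are every K562 value and the HEL DAC value of IGFBP7, and every HEL value of INSR. Several K562 values of IGFBP2 and IGFBP5 were under 5 too, as was IGFBP4 in HEL with DAC. IGFBP4 was most like CFLAR, an inhibitor of caspase-8 (Pearson r = 0.979), BHLHE40, a transcriptional repressor (0.959), INO80D (0.958), HMG20B (0.954) and CORO7 (0.951). IGFBP2 was most like the kinase RPS6KA1 (0.992), TACC1, the thrombin receptor F2R, NOL4L and ABHD2 (0.983). For IGFBP5 these were ARRB1 (0.969), CAMK1D, NMI, PCGF2 and TAB2 (0.956), and for IGFBP7 AMPD2 (0.969), ST3GAL3, ZNF548, ARGLU1 and ZMYM2 (0.950). IGF2R was most like TUSC3 (0.992), PTPRS, TNFRSF10B, KCNK1 and PDE3B (0.990), and INSR most like SET (0.973), SFTPB, EIF4EBP2, RAB9A and GCH1 (0.968).

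The untreated K562 arrays differed from each other by over 1.5-fold in 4 of the 7 genes measured there, 3 higher and 1 lower in the second, where 13.3% and 11.2% of all genes were. The gap was 1.43 for IGFBP2, 1.41 for IGFBP4, 4.92 for IGFBP5 and 1.18 for IRS2 on the log2 scale, and 0.14 to 0.49 for the 3 receptors. For IGFBP2 and IGFBP5 the first array was under 5 (4.13 and 3.50), so the sizes of these gaps are not measured. The gap of IGFBP2 need not exceed 1.5-fold.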
